A study of Homo sapiens with 4 samples.

Results

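The expression of 10 Wnt target and crypt stem genes, LGR5, ASCL2, AXIN2, RNF43, ZNRF3, NKD1, LEF1, TCF7, MYC and SOX9, was examined in HCT116 cells. This line comes from a human colorectal carcinoma and carries active beta-catenin. The rule that names them uses no value of the arrays, although the genes were chosen with earlier results of these data known. Their probes were found through the RefSeq accession of each probe. They are 10 of 21611 genes matched in this way, and 13 of 50594 probes. The cells were migrating (MG) and non-migrating (non-MG) subpopulations, obtained by repeated passage through a transwell chamber and cultured separately. Each was treated for 48 h with vehicle or with 5-azacytidine at 5 µM, a cytidine analog that inhibits DNA methyltransferases. All 4 groups share the HCT116 line, and each has 1 one-colour Agilent array: non-MG vehicle, non-MG 5-azacytidine, MG vehicle and MG 5-azacytidine. There are therefore no replicates, no test between conditions was made, and a ratio describes the 2 arrays it compares and not the conditions in general.

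In the Wnt pathway, secreted Wnt ligands bind Frizzled receptors and LRP co-receptors, and the destruction complex of APC, AXIN and GSK3 then stops degrading beta-catenin. Beta-catenin enters the nucleus and activates target genes together with DNA-binding proteins of the TCF and LEF family. At the base of the intestinal crypt this pathway maintains the stem cells. Many of its targets feed back on it, and colorectal carcinomas usually keep it switched on by mutation.

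Levels are given as the log2 of the background-corrected intensity minus the 75th percentile of its array, so 0 is the 75th percentile. A level says nothing about the level of another gene, because probes differ in brightness. A log2 ratio is the difference of 2 such levels. The MG/non-MG ratio compares the cell types within a treatment, and the 5-azacytidine response compares 5-azacytidine with vehicle within a cell type. Each ratio has a spot error, which is the standard error from the scatter of repeated spots on an array. Spotting and scanning enter this error, and differences between cultures do not. The threshold for counting a gene was 1.5-fold, which is 0.58 on the log2 scale. Of the 10 genes, 7 had a probe well above background on all 4 arrays, and 10 of their probes met this criterion. These 7 were AXIN2, RNF43, ZNRF3, NKD1, TCF7, MYC and SOX9. Across all 4 arrays, 15707 genes or unnamed transcripts met it and form the background of every count.

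The arrays had between 21382 and 21881 probes well above background, and no spot was saturated. As for the cell type, 8 of 10 epithelial markers were well above background on all 4 arrays, among them EPCAM, KRT8, KRT18 and CDH1, while VIL1 and LGALS4 were not on any. Among the 8, the MG/non-MG ratio of CDH1 was -0.66 with vehicle, that of CLDN4 was -0.73 with vehicle and -0.90 with 5-azacytidine, and that of KRT20 was 0.66 with 5-azacytidine. The 5-azacytidine response of KRT20 was 1.85 in the MG cells and 1.42 in the non-MG cells, and the other values of the 8 were within 1.5-fold. With median centring of the arrays, the vehicle ratios of CDH1 and CLDN4 were within 1.5-fold too. Median centring takes the median over all probes of an array as its reference, at intensities of 6.9 to 7.5. This reference lay below the dimmest probes that passed as well above background, at 9.95 to 11.8. Of 5 fibroblast, 5 blood and 3 endothelial markers, COL1A1, CD14 and VWF were the only ones measured on all 4 arrays, and DCN, PTPRC and PECAM1 were not. The MG/non-MG ratio with vehicle was -0.92 for COL1A1, -0.53 for CD14 and -0.33 for VWF. CD14 and VWF were dim with vehicle, at 17.1 and 21.8 in the non-MG cells and 13.5 and 19.8 in the MG cells. The 5-azacytidine response in the MG cells was 1.0 for CD14 (spot error 0.38) and 0.70 for VWF (spot error 0.10). In the non-MG cells it was 0.87 for CD14 (spot error 0.28). Their part in the results was not tested. Both arrays of each cell type lay in 1 row of the slide and both arrays of each treatment in 1 column, so the position on the slide and the groups cannot be told apart.

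AXIN2 encodes a scaffold of the destruction complex. It is induced by beta-catenin and limits the pathway in turn. Of the 7 measured genes it differed most between the cell types. Its level was -0.60 in vehicle-treated non-MG cells, -0.24 in 5-azacytidine-treated non-MG cells, 0.21 in vehicle-treated MG cells and 0.53 in 5-azacytidine-treated MG cells. Both MG arrays were above both non-MG arrays, and each step between neighbours in this order was larger than 2 spot errors. The MG/non-MG ratio was 0.81 with vehicle (spot error 0.11), which is 1.75-fold, and 0.77 with 5-azacytidine (spot error 0.09), which is 1.71-fold. In a bulk sample such as these cultures, a larger share of cells with AXIN2 RNA and more AXIN2 RNA per cell cannot be told apart.

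AXIN2 was measured by 2 probes. With vehicle, the MG/non-MG ratio was 0.99 for A_23_P148015 and 0.64 for A_24_P298027. With 5-azacytidine it was 0.91 and 0.64. The difference therefore passed 1.5-fold for each probe in each comparison. With normexp background correction, which adds an offset of 50 to every signal, AXIN2 fell short of 1.5-fold, at 0.50 with vehicle and 0.43 with 5-azacytidine. The intensities of its probes lay between 56.3 and 149.5, so an offset of this size compresses the ratio by construction.

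**Figure D1:**
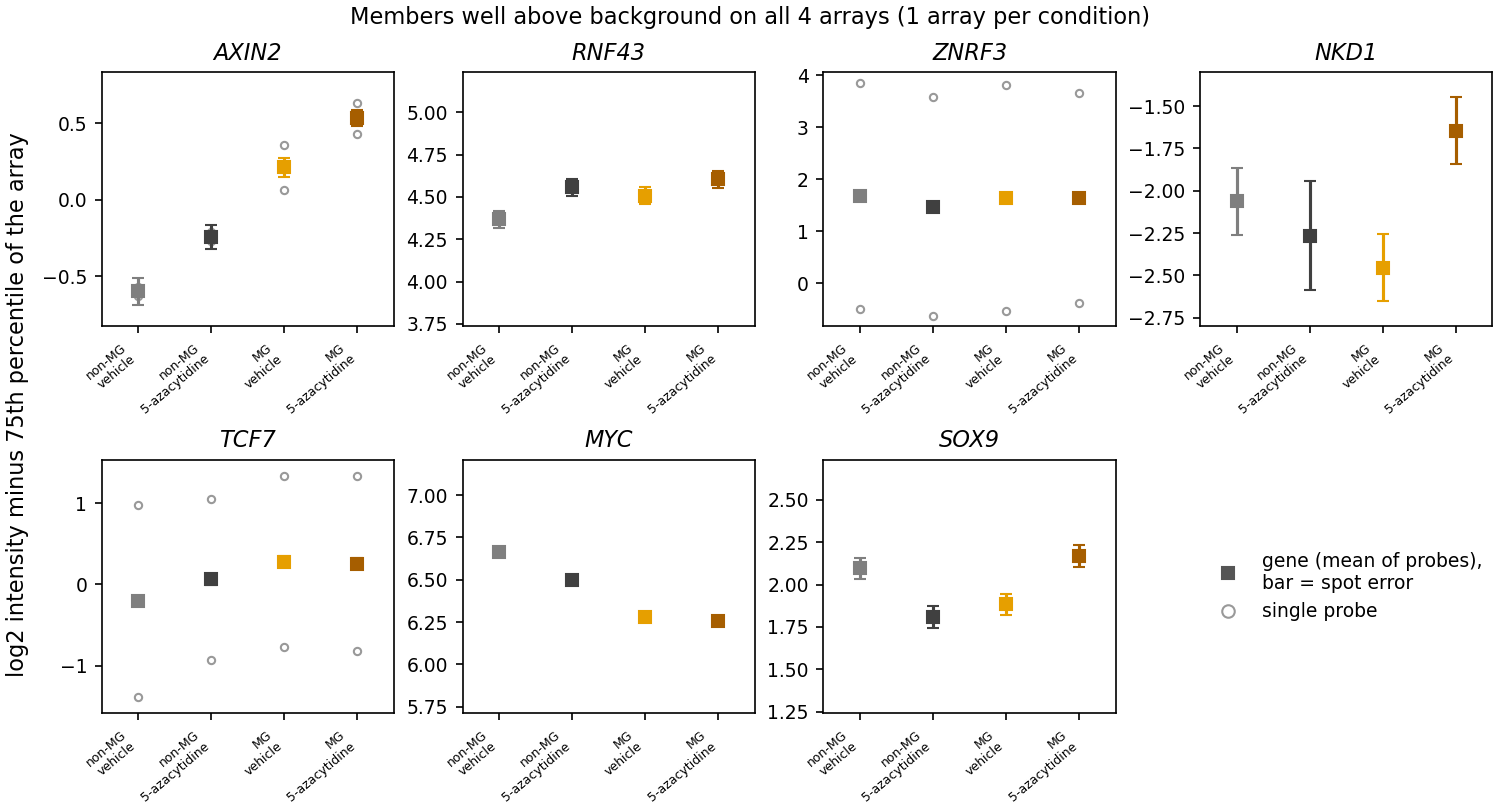
Level of the 7 genes measured on all 4 arrays, as log2 intensity minus the 75th percentile of the array, with a separate vertical scale for each gene. Squares are genes with their spot error and open circles are single probes of genes with more than 1 probe. AXIN2 runs from -0.60 to 0.53 across the 4 arrays, and both MG arrays lie above both non-MG arrays for AXIN2 and TCF7 and below them for MYC, whose ratio with 5-azacytidine changes sign to 0.01 with median centring.

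TCF7 encodes TCF1, a DNA-binding partner of beta-catenin that is also a target of the pathway. Its level was -0.20 in vehicle-treated non-MG cells, 0.06 in 5-azacytidine-treated non-MG cells, 0.28 in vehicle-treated MG cells and 0.26 in 5-azacytidine-treated MG cells. Both MG arrays were again above both non-MG arrays, but the MG arrays differed from each other by less than the spot error. The MG/non-MG ratio was 0.48 with vehicle (spot error 0.09) and 0.19 with 5-azacytidine (spot error 0.09), both within 1.5-fold. Median centring of the arrays brought the value with vehicle to 0.68, past 1.5-fold.

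One of the TCF7 probes, A_23_P7582, is spotted 10 times on each array, which shows the scatter directly. Its spots ran from 0.90 to 1.05 with a median of 0.99 in vehicle-treated non-MG cells. They ran from 0.92 to 1.12 with a median of 1.08 in 5-azacytidine-treated non-MG cells, where 8 spots were left after outliers were removed. In the MG cells they ran from 1.25 to 1.47 with a median of 1.34 with vehicle, and from 1.29 to 1.38 with a median of 1.34 with 5-azacytidine. The lowest MG spot was thus above the highest non-MG spot. For this probe the MG/non-MG ratio was 0.35 with vehicle (spot error 0.03) and 0.28 with 5-azacytidine (spot error 0.03). The dimmer probe, A_33_P3250671, gave 0.61 with vehicle, past 1.5-fold, and 0.10 with 5-azacytidine, so the probes differed in size and not in direction.

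TCF7 is also the gene whose upstream sequence held the letters that TCF and LEF proteins bind. The words CTTTGAA and CTTTGAT, along with CTTTGTA and also CTTTGTT, were searched on both strands from 250 bases before to 50 bases after each start in the RefSeq annotation of GRCh38.p14. These 4 words have the same length and cannot fill the same position of a strand together. The promoter table holds 5 promoters of 3 genes of the group, LEF1, TCF7 and RNF43. Of these, 1 held a match, compared with 13.8% of 35116 promoters. It lay in the promoter of the downstream TCF7 start, on chromosome 5, as CTTTGTT on the reverse strand, with the leftmost base of the match 50 bases before the start. It is shown 5′ to 3′ on the plus strand, chr5:134123557-134123586 of GRCh38.p14, with the match in capitals.
TCF7 downstream promoter: ggccccactggAACAAAGgaggagagaggc
A match of these letters is a description and not a bound site. The windows of LEF1, of the upstream TCF7 start and of both RNF43 starts did not hold these letters.

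LEF1 encodes the paralog of TCF7 that binds the same letters. Its probe fell short of the detection flag on every array, with intensities of 2.25 and 2.13 in the non-MG cells and 2.43 and 3.5 in the MG cells, each with vehicle and 5-azacytidine in that order. For comparison, the dimmest probes that passed as well above background had 9.95 to 11.8 on these arrays. No fold is given for LEF1.

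MYC encodes a transcription factor that drives growth and proliferation and is a classical target of beta-catenin in colorectal cancer. Its only matched probe is spotted 10 times as well. In the non-MG cells the spots ran from 6.62 to 6.70 with a median of 6.66 with vehicle, and from 6.38 to 6.64 with a median of 6.48 with 5-azacytidine. In the MG cells they ran from 6.23 to 6.34 with a median of 6.28 with vehicle, and from 6.20 to 6.28 with a median of 6.27 with 5-azacytidine. The highest MG spot was below the lowest non-MG spot. MYC was thus lower in the MG cells on this scale, opposite to AXIN2 and TCF7, although with median centring its value with 5-azacytidine turned to 0.01.

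The MG/non-MG ratio for MYC was -0.39 with vehicle (spot error 0.01), which is 1.31-fold, and -0.24 with 5-azacytidine (spot error 0.03). Neither passed 1.5-fold. With median centring the value with vehicle was -0.19 and kept its direction, and that with 5-azacytidine did not. Of 8 alternative ways of processing, only this 1 changed that sign. Its reference is the dim median signal given above. The MG arrays differed from each other by 0.02, and the non-MG arrays by 0.17.

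**Figure D2:**
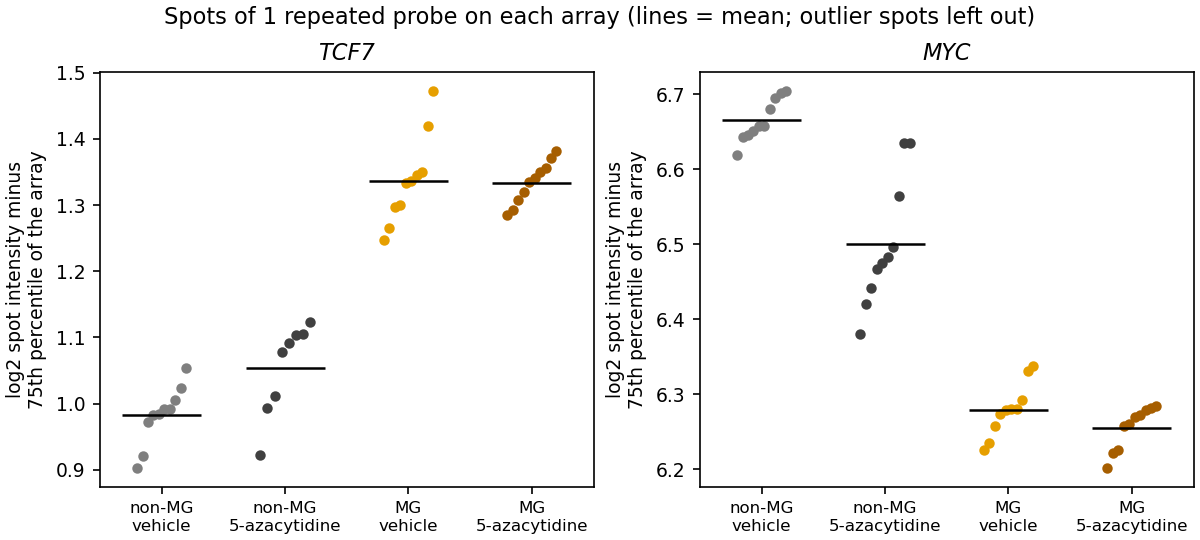
Single spots of the repeated probes of TCF7 and MYC on each array, as log2 spot intensity minus the 75th percentile of the array, with the mean as a line. Each array has 10 spots except the array of non-MG cells with 5-azacytidine for TCF7, which has 8. All MG spots lie above all non-MG spots for TCF7, and all lie below them for MYC, although with median centring the MYC ratio with 5-azacytidine is 0.01. Spots are repeats on 1 array and not separate cultures.

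RNF43 and ZNRF3 encode membrane ubiquitin ligases that are targets of the pathway and remove Frizzled receptors from the cell surface. RNF43 had levels of 4.37 and 4.56 in non-MG cells (vehicle, then 5-azacytidine), and of 4.51 and 4.60 in the MG cells. No step between neighbours in its order of levels exceeded 2 spot errors, and its MG/non-MG ratio was 0.14 with vehicle and 0.05 with 5-azacytidine (spot error 0.07 each). The latter was -0.08 with quantile normalization.

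ZNRF3 had levels of 1.68 and 1.47 in non-MG cells (vehicle, then 5-azacytidine), and of 1.64 in both arrays of MG cells. Its MG/non-MG ratio was -0.04 with vehicle (spot error 0.09) and 0.17 with 5-azacytidine (spot error 0.09), and no neighbouring levels differed by more than 2 spot errors. The value with vehicle was 0.16 with median centring. Its probes, A_23_P427502 and A_24_P162373, both gave -0.04 with vehicle, and 0.25 and 0.08 with 5-azacytidine. Their 5-azacytidine responses in the MG cells were opposite in sign, at 0.16 (spot error 0.12) and -0.17 (spot error 0.07), so the response of the gene there is a mean of opposed values. RNF43 and ZNRF3 thus stayed within 1.5-fold in all 4 comparisons.

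NKD1 encodes a cytoplasmic inhibitor that binds Dishevelled and is induced by Wnt signalling. It was measured by 1 dim probe, with intensities of 20.8 and 15.6 in non-MG cells (vehicle, then 5-azacytidine) and of 18.0 and 30.8 in the MG cells. Its levels were -2.06, -2.26, -2.45 and -1.65 in this order. The MG cells with 5-azacytidine had the highest level, but no step between neighbours in the order exceeded 2 spot errors.

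The 5-azacytidine response of NKD1 was 0.81 in the MG cells (spot error 0.28), which is 1.75-fold, and -0.20 in the non-MG cells (spot error 0.38). Its MG/non-MG ratio was -0.39 with vehicle (spot error 0.28) and 0.62 with 5-azacytidine (spot error 0.38). The latter passed 1.5-fold but was smaller than 2 spot errors. With normexp correction the response in the MG cells was 0.29, within 1.5-fold, and the value in the non-MG cells changed sign to 0.09. NKD1 is thus measured with less precision than the other genes of the group.

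SOX9 encodes a transcription factor of crypt progenitors and Paneth cells that lies downstream of Wnt signalling. Its level was 2.10 in vehicle-treated non-MG cells, 1.81 in 5-azacytidine-treated non-MG cells, 1.88 in vehicle-treated MG cells and 2.17 in 5-azacytidine-treated MG cells. The cell types overlapped, and the highest and lowest arrays were both treated with 5-azacytidine. The MG/non-MG ratio was -0.21 with vehicle and 0.36 with 5-azacytidine (spot error 0.09 each), both within 1.5-fold. With median centring the ratio was -0.02 with vehicle and 0.62 with 5-azacytidine.

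LGR5 encodes the R-spondin receptor that marks the stem cells of the crypt base, and ASCL2 encodes the transcription factor that maintains them. The LGR5 probe did not reach the detection flag of the scanner software on any array. Its intensities were 2.10 and 2.02 in non-MG cells (vehicle, then 5-azacytidine), and 2.33 and 2.4 in the MG cells. The ASCL2 probe did not reach this flag either, with 2.82 and 11 in the non-MG cells and 4.35 and 13.1 in the MG cells. Both ASCL2 signals with 5-azacytidine were higher than both with vehicle. They also exceeded the lowest signals flagged as well above background on the same arrays, 9.95 and 11.8, but their own spots do not carry the flag, so no fold is given.

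Counted together, 1 of the 7 measured genes, AXIN2, was higher in the MG cells past 1.5-fold with vehicle, where 5.68% of all 15707 genes were higher, and none was lower, where 8.24% were. With 5-azacytidine 2 of the 7, AXIN2 and NKD1, were higher, compared with 5.74% of all genes, and none was lower, compared with 7.33%. AXIN2 alone of the 7 was higher past 1.5-fold in both comparisons, as were 2.71% of all genes, and none was lower in both, as were 3.81%. Both MG arrays lay above both non-MG arrays for AXIN2 and TCF7, as for 32.3% of all genes, and below them for MYC, as for 30.8%, apart from the change of sign of MYC with median centring. With median centring the genes higher and lower with vehicle were 2127 and 601, in place of 892 and 1295, and with 5-azacytidine 3005 and 397, in place of 902 and 1151. The median over all genes moved by 0.20 with vehicle and by 0.26 with 5-azacytidine. Under that centring the gene added among the 7 was TCF7 with vehicle and SOX9 with 5-azacytidine.

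The median log2 ratio of the 7 genes was -0.04 between the cell types with vehicle, compared with -0.01 over all genes, and 0.19 with 5-azacytidine, compared with 0.02. With vehicle 3 of the 7 were above and 4 below 0, and 48.7% of all genes were above. With 5-azacytidine 6 were above and MYC below 0, and 51.8% of all genes were above. With median centring 4 were above with vehicle and all 7 with 5-azacytidine, compared with 68.5% and 75.7% of all genes. The ratios of AXIN2, TCF7, MYC and SOX9 exceeded 2 spot errors in both comparisons. With median centring SOX9 with vehicle, at -0.02, and MYC with 5-azacytidine, at 0.01, did not.

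**Figure D3:**
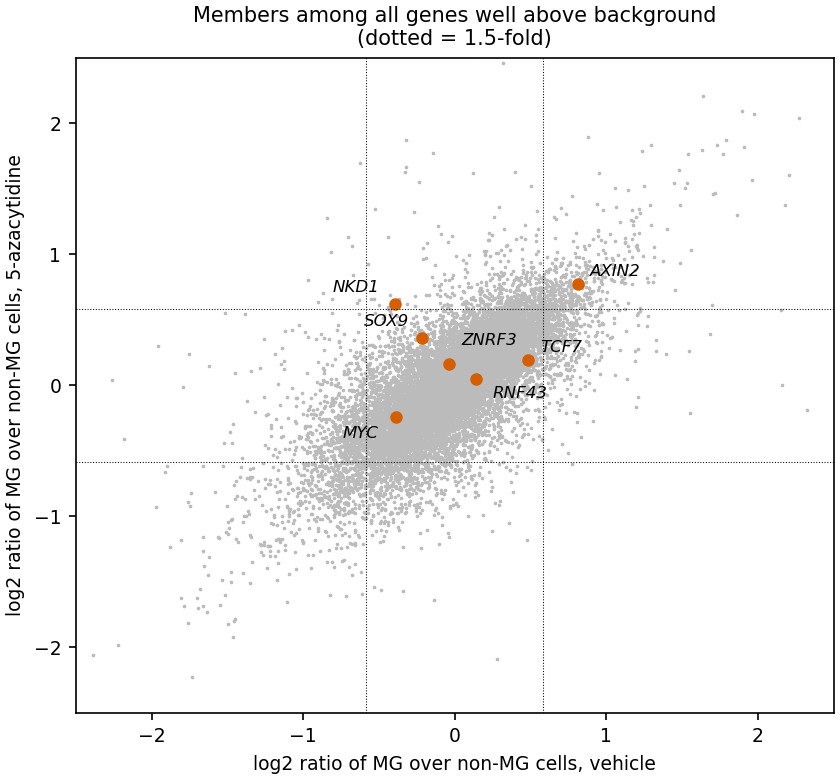
Log2 MG/non-MG ratio with vehicle (horizontal) and with 5-azacytidine (vertical) for all 15707 genes that passed the background criterion, in grey, and the 7 measured Wnt target and crypt stem genes, in orange, with 16 genes beyond the axes at 2.5. AXIN2 at 0.81 and 0.77 is the only one of the 7 past the dotted 1.5-fold lines on both axes, and the others lie among the bulk of genes or, for NKD1, at its edge.

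Few of these genes, and few of all genes, passed 1.5-fold with 5-azacytidine. In the MG cells 1 of 7, NKD1, was higher past 1.5-fold, compared with 3.02% of all genes, and none was lower, compared with 2.1%, or 5.12% in either direction. In the non-MG cells none of the 7 was higher or lower, compared with 1.9% and 1.68% of all genes, or 3.58% in either direction. With median centring the genes higher and lower in the non-MG cells were 198 and 539, in place of 298 and 264. AXIN2 had a 5-azacytidine response of 0.32 in the MG cells (spot error 0.08) and of 0.36 in the non-MG cells (spot error 0.12). Its responses in the 2 cell types differed by -0.04, within the spot error of 0.14. RNF43 had 0.10 and 0.19 (spot error 0.07 each), ZNRF3 had -0.0041 and -0.21 (spot errors 0.07 and 0.10), and MYC had -0.02 and -0.17 (spot errors 0.01 and 0.03), each in the MG and the non-MG cells in that order. TCF7 had -0.03 in the MG cells and 0.27 in the non-MG cells, where its repeated probe gave 0.07 and its dim probe 0.46. The comparisons between cell types and between treatments share arrays, so their values are not independent of each other.

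**Figure D4:**
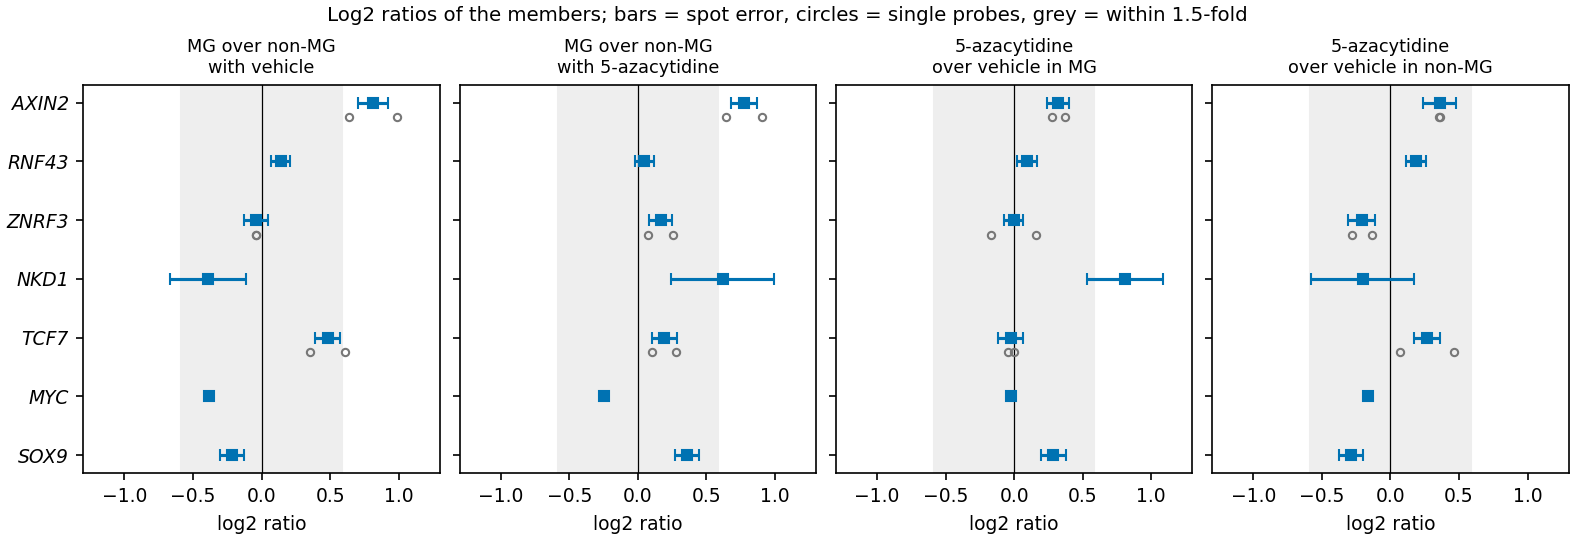
Log2 ratios of the 7 measured genes in the 4 comparisons, with the spot error as bars, single probes of genes with more than 1 probe as open circles, and the range within 1.5-fold in grey. AXIN2 is past 1.5-fold between the cell types with and without 5-azacytidine, NKD1 is past it with 5-azacytidine and has the widest bars, and the other gene values lie within it. Of the probes of TCF7, the dim one lies past it with vehicle, at 0.61.

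The genes whose levels ran most like those of AXIN2 over the 4 arrays were CTPS1, TCTA and WTAP, with root mean square differences of 0.022, 0.025 and 0.030 after centring each gene. Among 12750 named genes, 82 lay within 0.1 of AXIN2, so this shape is not particular to these. For NKD1 they were DOC2B, TMEM35B and MYO1A, with 0.031, 0.033 and 0.041, and 14 genes lay within 0.1. With 4 arrays, likeness of this kind is a description only.

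The other genes of the pathway were taken from lists by role, of which 102 of 105 genes had a matched probe and 75 were measured on all 4 arrays. With vehicle, 4 of the 75 (5.33%) were higher and 5 (6.67%) lower in the MG cells past 1.5-fold, compared with 5.68% and 8.24% of all genes, and their median log2 ratio was -0.11, compared with -0.01 over all genes. With median centring 12 (16.0%) were higher and 3 (4.0%) lower, compared with 13.5% and 3.83% of all genes. The shares of the lists were thus near those of all genes under either scaling. CTNNB1, which encodes beta-catenin, stayed within 1.5-fold in all 4 comparisons, with 0.12 between the cell types with vehicle and 0.13 with 5-azacytidine. The mean intensities of its probes were 1029 and 972 in non-MG cells (vehicle, then 5-azacytidine), and 1269 and 1364 in the MG cells. None of the 15 measured genes of the transduction and destruction complex passed 1.5-fold in any of the 4 comparisons on the 75th-percentile scale. Of all genes, 13.9% and 13.1% passed it between the cell types (vehicle, then 5-azacytidine). With 5-azacytidine, 5.12% passed it in the MG cells and 3.58% in the non-MG cells, so such a count is not particular to this list. Median centring took the MG/non-MG ratios of GSK3A and FBXW11 with 5-azacytidine, from 0.37 and 0.35, past 1.5-fold.

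Among ligands and the genes for their release, WLS, which carries Wnt proteins to the cell surface, had an MG/non-MG ratio of -1.35 with vehicle (spot error 0.07) and of -0.70 with 5-azacytidine. WNT3A, a ligand of the beta-catenin pathway, was higher by 0.66 with vehicle and by 0.72 with 5-azacytidine (spot error 0.16 each). RSPO4, an R-spondin ligand of the LGR receptors, was measured by a dim probe. It had -1.06 with vehicle (spot error 0.38) and -0.43 with 5-azacytidine (spot error 0.28). WNT11, a ligand best known outside the beta-catenin branch, had a 5-azacytidine response of 0.82 in the MG cells (spot error 0.16) and of 1.04 in the non-MG cells (spot error 0.24).

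Among 14 measured receptors, 1 differed between the cell types past 1.5-fold with vehicle, compared with 13.9% of all genes. This was LGR4, the close relative of LGR5 that also binds R-spondins, with an MG/non-MG ratio of -1.10 with vehicle (spot error 0.09) and of -1.44 with 5-azacytidine (spot error 0.09). Its intensities were 532 and 520 in non-MG cells (vehicle, then 5-azacytidine), and 282 and 245 in the MG cells. LGR4 was thus lower on both MG arrays, while LGR5 was not measurable on any. Median centring took the vehicle ratios of FZD1 and FZD6, from 0.53 and 0.49, past 1.5-fold as well. FZD9, a Frizzled receptor, had a 5-azacytidine response of 0.90 in the non-MG cells (spot error 0.18).

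Among 10 measured nuclear partners, TCF7L2, the main TCF factor of the intestinal epithelium, had -0.69 with vehicle (spot error 0.10) and -0.79 with 5-azacytidine (spot error 0.11). It lay opposite to its relative TCF7, and fell short of 1.5-fold with median centring, at -0.49 and -0.53. These values are means of 2 of its 3 probes. Over all alternatives they ran from -0.80 to -0.43 with vehicle and from -1.15 to -0.39 with 5-azacytidine. BCL9, a co-activator of beta-catenin, had a 5-azacytidine response of -0.59 in the non-MG cells.

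Among 15 other targets and feedback genes, SP5, a transcription factor gene that beta-catenin induces directly in many cell types, had the largest ratio with vehicle. Its intensities were 110 and 135 in non-MG cells (vehicle, then 5-azacytidine), and 288 and 363 in the MG cells, so the order of the 4 arrays was that of AXIN2. Its MG/non-MG ratio was 1.2 with vehicle (spot error 0.11) and 1.07 with 5-azacytidine (spot error 0.10). FOSL1, which encodes a subunit of AP-1, had 0.61 and 0.76 in the same comparisons. EPHB3, an ephrin receptor that positions cells along the crypt, had -0.62 with vehicle and -0.43 with median centring, within 1.5-fold. MMP7, a matrix protease, had a 5-azacytidine response in the non-MG cells of -1.03 (spot error 0.34) and an MG/non-MG ratio with 5-azacytidine of 1.05 (spot error 0.34).

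Among 9 measured crypt stem and progenitor genes, CDCA7, which is transcribed in cycling cells, had an MG/non-MG ratio of 0.73 with vehicle (spot error 0.09) and of 0.39 with 5-azacytidine. The other 8, among them MSI1, BMI1, LRIG1 and PROM1, were within 1.5-fold in all 4 comparisons without median centring. Of all genes, 13.9% and 13.1% were past it between the cell types (vehicle, then 5-azacytidine), and 5.12% and 3.58% with 5-azacytidine (MG, then non-MG). Median centring took the vehicle ratio of BMI1, from 0.47, past 1.5-fold. It did the same for the MG/non-MG ratio of PROM1 with 5-azacytidine, from 0.36. OLFM4 and SMOC2, markers of the crypt base beside LGR5, had no probe well above background on all 4 arrays. With normexp correction SP5, LGR4 and FOSL1, and WLS with vehicle, kept values past 1.5-fold, as 0.86 for SP5 and -0.85 for LGR4 with vehicle. The values given for TCF7L2, RSPO4, WNT11, FZD9, BCL9, CDCA7, EPHB3, MMP7, WNT3A with vehicle and WLS with 5-azacytidine were then within it.

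**Figure D5:**
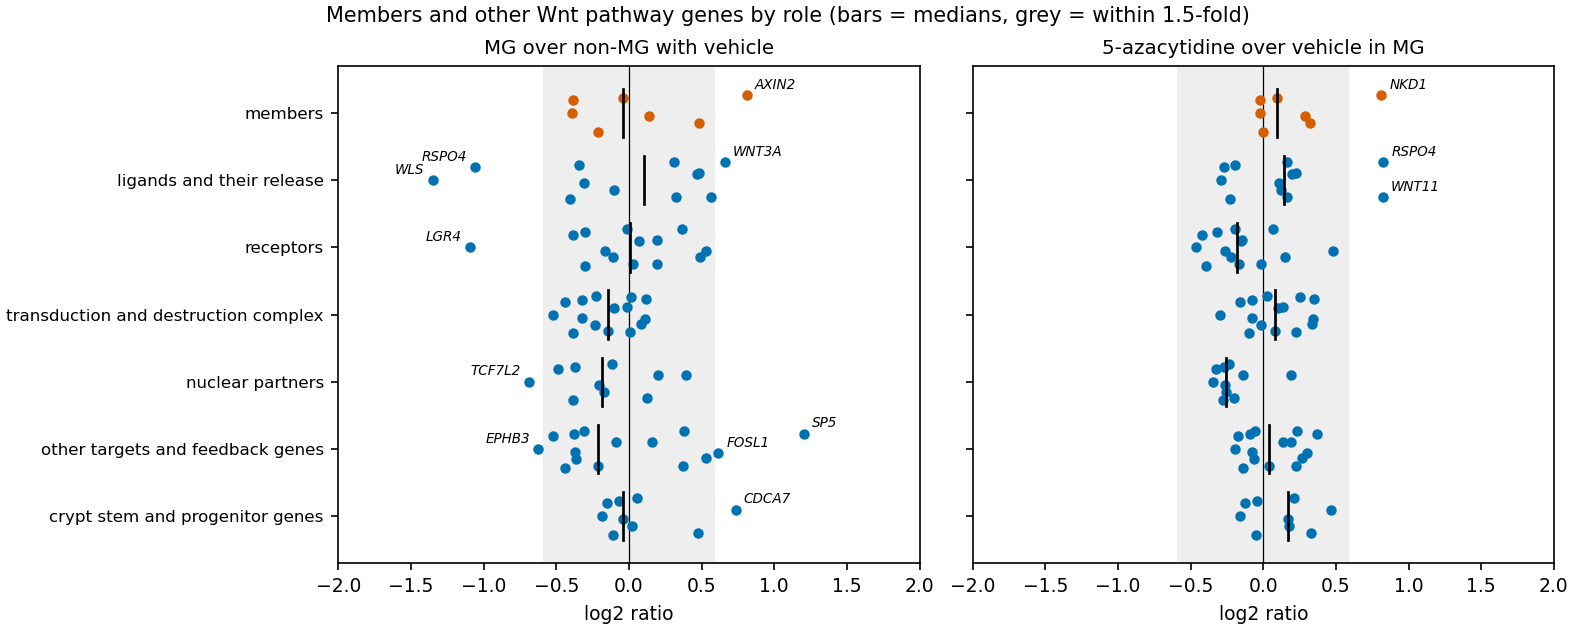
Log2 ratios of the 7 measured Wnt target and crypt stem genes, in orange, and of 75 other pathway genes by role, in blue, as MG/non-MG ratio with vehicle (left) and as 5-azacytidine response of the MG cells (right). Bars are medians of each row, and genes outside the grey range of 1.5-fold are named. AXIN2 and SP5 lie to the right and LGR4, WLS and TCF7L2 to the left between the cell types. With 5-azacytidine, 2 of the 75 genes (2.67%) are higher past 1.5-fold, compared with 3.02% of all genes. None of the 75 is lower, compared with 2.1% of all genes. With median centring TCF7L2 is within 1.5-fold.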

How the data were processed

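RNA (400 ng) of each culture was labelled with Cy3 and hybridized to 1 array per condition. The labels name RNAiso Plus for extraction and the methods name an RNeasy kit. Per spot, the authors deposited a background-corrected linear intensity with flags, written by Agilent Feature Extraction 11.5.1.1 without scaling arrays to each other. A further table deposited by the authors holds log2 values of 24189 probes, centred on the median of each probe over the 4 arrays, used here only as an alternative. Its normalization between arrays is not given in the sources used here.

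Control spots and outlier spots were removed, which left out 5 of 50599 probes, and log2 spots were averaged per probe. The 75th percentile over non-control probes was subtracted from each array. Probes were named by accession through the RefSeq table of GRCh38.p14, which matched 30000 probes (59.3%). Ratios were averaged over the probes of a gene that were well above background on all 4 arrays. Spot error came from 902 probes spotted 10 times, by range of intensity, or from a probe's own spots where it is repeated. Counting was tested on simulated vehicle arrays of both cell types, with 200 of 15707 genes changed 4-fold in intensity, of which 200 were recovered. A 4-fold change lies far past the threshold of 1.5-fold, so this says nothing about ratios near it. No test between conditions was made, since each has 1 array, and the number of arrays, 4, limits how precise a ratio is.

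The genes and lists were chosen with earlier results of these data known. All 10 genes were named with every matched probe, along with CTNNB1, TCF7L2, up to 3 rises and 3 falls of pathway genes per comparison, and the 3 genes nearest in pattern to a gene that spanned over 1.5-fold. EPHB3 and the genes named within 1.5-fold or as not measured were chosen after their values were seen. Alternatives were normexp with an offset of 50 on the median spot intensity, quantile normalization, median centring, filters, a floor at the detection limit, 1 probe per gene (the brightest), the authors' values and other thresholds. Computations ran in Python 3.11.15 (pandas 2.3.3, numpy 2.4.6) and R 4.3.3 (limma 3.58.1), and figures were drawn in matplotlib 3.10.9.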

Additional observations from a re-analysis of the deposited data

Results flagged for a closer look

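SOX9 moved in opposite directions with 5-azacytidine in the 2 cell types, by more than the spot error in each. The log2 response was 0.29 in the MG cells and -0.29 in the non-MG cells, with a spot error of 0.09 each, and the response in the MG cells exceeded that in the non-MG cells by 0.57. Both ratios were within 1.5-fold, and with 1 array per condition the difference was not tested.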

How the results depend on the processing

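The count of genes past 1.5-fold, out of the 7 measured, rests on AXIN2 and NKD1. With normexp correction 0 genes passed in both comparisons of the cell types and with 5-azacytidine in the MG cells, in place of 1, 2 and 1. With a threshold of 2-fold the count was 0 in these 3 comparisons as well. With median centring, TCF7 joined AXIN2 with vehicle, which gave 2. With no filter on dim probes, ASCL2, below the detection flag on all 4 arrays, was added, which gave 2 genes with 5-azacytidine in the MG cells and 1 in the non-MG cells. The other alternatives that were run left the counts within 1.5 times. Of 224 ratios recomputed over 28 values and 8 alternatives, 100 could not move, because all probes of the 7 genes pass every filter and the floor or because a gene has 1 probe. Of the other 124, 119 kept their sign, 79 moved by less than the spot error and 45 by more. Among the 124 are the ratios from the authors' values. These equal the ratios here apart from a small constant per comparison, so their likeness was given beforehand. No gene past 1.5-fold changed sign. The exceptions in sign were small values of MYC, RNF43, ZNRF3 and NKD1 under quantile normalization, median centring or normexp. Beyond the offset, the cause was not tested. Matching by a column of gene names was not run, because the files used hold no such column. No paired analysis was possible because the groups share only replicate number 1. A fit with treatment as a block was not run, since its error would be the difference in response between the cell types. Dim signals limit NKD1 most, since repeated spots scattered with a median SD of 0.32 where log2 intensity was 3 to 4, as for NKD1 on 1 array, and of 0.20 where it was 4 to 5, as on the other 3, compared with 0.05 past 10.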
